A study of Mus musculus with 63 samples.

Results

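Small intestinal organoids of CDK8iIEC-KO/Cdk19-/- mice, which lack both kinases of the Mediator complex in the epithelium, were compared with organoids of VillinCreERT2 mice 7 days after 4-hydroxytamoxifen (4-OHT). The comparison takes 6 of the 63 libraries of the series, 3 per group, chosen by the genotype, treatment and time in their labels. Genes on chromosomes X and Y were left out, which kept 50568 of 54752 genes, and 14652 of these passed the filter on low counts and were tested. The CDK8iIEC-KO/Cdk19-/- organoids carry VillinCreERT2, Cdk8 fl/fl and a constitutive homozygous null Cdk19, so Cdk19 was absent from the start and Cdk8 was deleted by 4-OHT. The control organoids carry VillinCreERT2 with both kinase genes intact. All 6 libraries come from organoids of the C57BL/6 strain given 100 nM 4-OHT, so Cre was activated in both groups. VillinCreERT2 is a Cre recombinase driven by the Villin promoter of the intestinal epithelium, which enters the nucleus when 4-OHT binds it. The labels give 3 numbered replicates per group and do not say whether these were separate animals, lines or cultures, so the p-values measure the spread between these libraries, which may be technical. Levels in wild-type C57BL/6, CDK8iIEC-KO and Cdk8 fl/fl/Cdk19-/- organoids, also given 4-OHT and collected at day 7, are given too. The names of the C57BL/6 and Cdk8 fl/fl/Cdk19-/- groups hold no VillinCreERT2. A second comparison was set beside the first one. It takes organoids with VillinCreERT2, Cdk8 fl/fl and null Cdk19 at day 7 of a time course, 3 libraries with 4-OHT and 3 with the vehicle EtOH, where both arms lack Cdk19 and differ in the treatment that deletes Cdk8.

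Mediator bridges transcription factors at enhancers and RNA polymerase II at promoters. Its kinase module, made of CDK8 or CDK19 with cyclin C, MED12 and MED13, binds and leaves the core complex and phosphorylates factors that act there. In the crypt of the small intestine, stem cells kept by Wnt signals give rise to absorptive enterocytes, on which Notch signals act, and to secretory cells that depend on the transcription factor ATOH1. The secretory cells are Paneth, goblet, tuft and enteroendocrine cells, and in organoids Paneth cells are themselves a source of Wnt ligands for the stem cells.

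Library totals lay between 17833336 and 18440256 counts in CDK8iIEC-KO/Cdk19-/- organoids and between 20424462 and 21439044 counts in VillinCreERT2 organoids. The 12 epithelial identity genes were all tested and had summed levels of 11100 to 12000 CPM in CDK8iIEC-KO/Cdk19-/- and 12100 to 13600 CPM in VillinCreERT2 libraries (CPM, counts scaled by TMM-adjusted library totals), with 1 of them, Cdx1, lower. Of 16 mesenchyme, immune, endothelial, muscle and nerve genes, 3 were at 0 in all 6 libraries and 9 at no more than 3 counts in every library, and their sums were 4.42 to 6.14 CPM and 5.27 to 5.40 CPM. Of the 3 tested, Itgam, an integrin gene of myeloid cells, was higher (means of 2.92 and 1.10 CPM), while Csf1r, another myeloid marker, averaged 0.17 and 0.998 CPM, and their part in the results was not tested. The C57BL/6 mean of Itgam was 4.14 CPM, above that of CDK8iIEC-KO/Cdk19-/- organoids. Xist, transcribed from the inactive X chromosome, was at 0.227 to 0.397 CPM in CDK8iIEC-KO/Cdk19-/- and at 350 to 443 CPM in VillinCreERT2 libraries, while the Y-linked Ddx3y was at 63.4 to 73.0 CPM and at 0. The sex of the lines and the genotype therefore cannot be told apart, also for autosomal genes. Ddx3y was at 57.3 to 62.3 CPM in CDK8iIEC-KO and at 57.4 to 59.7 CPM in Cdk8 fl/fl/Cdk19-/- libraries. Xist was at 0.0458 to 0.464 and 0.179 to 0.298 CPM there, as low as in CDK8iIEC-KO/Cdk19-/- libraries. Whole-gene counts do not check the deletions, since a transcript that lacks the deleted part is still counted. Cdk8 was at 68.5, 67.3 and 68.9 CPM in CDK8iIEC-KO/Cdk19-/- against 82.8, 73.6 and 76.0 CPM in VillinCreERT2 organoids, and Cdk19 at 28.5, 28.8 and 28.4 CPM against 29.8, 28.5 and 27.9 CPM.

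Of the genes tested, 2853 passed an adjusted p of 0.05 and a 1.5-fold change, which is 19.5%, with 1702 higher in CDK8iIEC-KO/Cdk19-/- organoids (11.6%) and 1151 lower (7.86%). These shares are the background for the counts of each list below, and the median log2 fold change over all genes tested was 0.0046. The change was at least 2-fold in 1317 genes and at least 4-fold in 271, of which 162 were higher and 109 lower. In bulk RNA a lower level can come from fewer cells of a type or from less RNA per cell, and these cannot be told apart. The mitochondrially encoded, interferon-stimulated, cytochrome P450, MHC class I and retinoid lists were among those with the larger shares of higher genes, and the Defa, tuft, Paneth and secretory transcription factor lists were among those with the larger shares of lower genes. The short list of stomach, pancreas and colon markers had 4 lower and 2 higher of 6 genes tested, and 2 and 2 against the mean of VillinCreERT2 and C57BL/6 organoids. Among these, Car4, a carbonic anhydrase, was at 1.30, 4.72 and 2.73 CPM against 16.4, 26 and 13.7 CPM, and Aqp8, a water channel, at 51.6, 53.4 and 69.3 CPM against 8.27, 5.80 and 9.67 CPM.

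**Figure D1:**
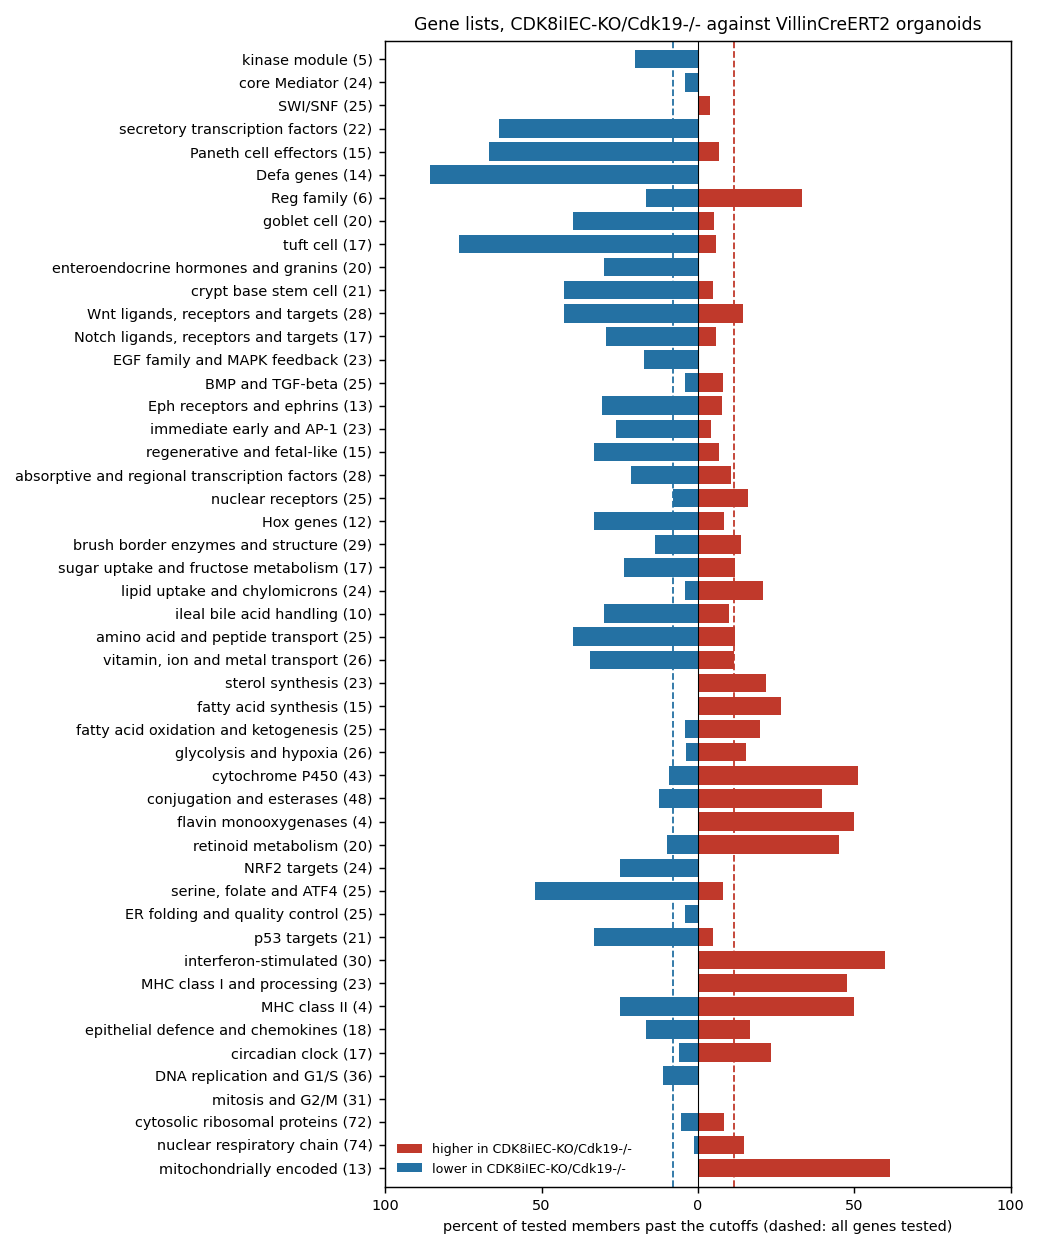
Percent of the tested members of each gene list (number tested in brackets) that were higher (red, right) or lower (blue, left) in CDK8iIEC-KO/Cdk19-/- than in VillinCreERT2 organoids, with dashed lines at the 11.6% and 7.86% of all genes tested. All 12 lower Defa genes and all 18 higher interferon-stimulated genes lie on 1 side with none on the other.

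The transcription factors that specify secretory cells were lower as a group. None of the 22 tested rose and 14 fell, with a median log2 fold change of -0.70. Atoh1, the factor that commits progenitors to the secretory fate, was at 12.1, 12.7 and 12.2 CPM in CDK8iIEC-KO/Cdk19-/- and at 23.6, 18.8 and 21.6 CPM in VillinCreERT2 libraries. The groups did not overlap, as was so for 59.8% of all genes tested, and the log2 fold change of Atoh1 was -0.79 ± 0.09 (SE, adjusted p = 1.32e-07, quasi-likelihood test of edgeR with Benjamini-Hochberg adjustment, as for all adjusted p-values here). Spdef, which acts below ATOH1 in goblet and Paneth cells, was at 12.5, 12.2 and 11.0 CPM against 19.9, 23.1 and 21.1 CPM, a fall of similar size (-0.85 ± 0.10). Bhlha15, a regulator of the secretory apparatus, was at 5.11, 5.25 and 4.89 CPM against 14.6, 13.4 and 14.0 CPM (-1.46 ± 0.10, adjusted p = 3.36e-12). Pou2f3, the factor that tuft cells require, had the largest fall of the list, from 2.65 to 3.38 CPM in VillinCreERT2 to 0.284 to 0.583 CPM (-2.67 ± 0.27). Sox4, Foxa3 and Creb3l1 each fell by over 1 on the log2 scale (-1.22, -1.13 and -1.08). Neurog3, which commits cells to the enteroendocrine fate, was at 2.44, 2.27 and 2.05 CPM against 3.45, 3.29 and 4.04 CPM (-0.67 ± 0.17, adjusted p = 0.00156). Gfi1, which acts below ATOH1 toward the Paneth and goblet fates, was at 1.87 to 2.72 CPM against 2.66 to 3.64 CPM, overlapped between groups and did not pass (adjusted p = 0.0502), though it passed without CDK8iIEC-KO/Cdk19-/- replicate 1 (-0.67) and without VillinCreERT2 replicate 3 (-0.62). In 12 of the 14 that fell, the CDK8iIEC-KO/Cdk19-/- mean was also the lowest of the 5 organoid groups collected at day 7, which add C57BL/6, CDK8iIEC-KO and Cdk8 fl/fl/Cdk19-/- organoids. The same held for 60.6% of all 1151 lower genes, and the highest mean of the 5 for 59.2% of all 1702 higher genes, which are the background for such counts here.

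Paneth cell products fell with these factors. Among 15 effectors tested, 10 fell and 1 rose, with a median log2 fold change of -0.88. Itln1, a lectin of Paneth and goblet cells that binds microbial sugars, was at 303, 307 and 307 CPM in CDK8iIEC-KO/Cdk19-/- and at 1160, 1100 and 1190 CPM in VillinCreERT2 organoids (-1.91 ± 0.06, adjusted p = 5.97e-19). Lyz1, the Paneth lysozyme, was at 256, 242 and 263 CPM against 607, 623 and 638 CPM (-1.29 ± 0.06). The ribonuclease gene Ang4 was at 27.2, 22 and 23.8 CPM against 98, 99.8 and 104 CPM (-2.05 ± 0.08). Each of these had replicate ranges far narrower than the gap between the groups. Mmp7, the protease that activates mouse alpha-defensins, was at 26.4 to 32.3 CPM against 47.9 to 55.0 CPM, a smaller fall (-0.76 ± 0.08). Mptx1, a pentraxin, was at 0.511 to 0.966 CPM against 9.72 to 14.3 CPM (-4.01 ± 0.32), and the phospholipase gene Pla2g2f at 0.992 to 1.19 CPM against 3.12 to 4.37 CPM (-1.75 ± 0.21). The VillinCreERT2 level of Lyz1 was itself low among the controls, since C57BL/6 organoids averaged 2480 CPM, so that the fold of Lyz1 depends on the control. All 10 effectors that fell had their lowest mean of the 5 day-7 groups in CDK8iIEC-KO/Cdk19-/- organoids (60.6% of all lower genes).

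The Defa genes encode alpha-defensins, the antimicrobial peptides of Paneth granules. Of the 22 genes, 14 were tested, 12 fell and none rose, with a median log2 fold change of -1.97. Defa24, the most counted of those named here, was at 222, 211 and 213 CPM against 897, 901 and 924 CPM (-2.07 ± 0.09, adjusted p = 1.03e-12). Defa21 was at 2.73 to 3.01 CPM against 8.80 to 14.6 CPM (-2.16 ± 0.23), and Defa20, Defa2 and Defa5 changed by -2.25, -2.16 and -1.86 on the log2 scale. Defa34 was at 0.117 to 0.341 CPM against 2.76 to 5.01 CPM (-4.07 ± 0.41), a few counts per library in the lower group. These genes are near-identical copies, and the treatment of reads that match several of them is not given in the sources used here, so the split among single Defa genes is uncertain. The Reg family, lectins that enterocytes and Paneth cells secrete, did not follow. Reg3g, at 120 to 133 CPM against 48.9 to 93.1 CPM, and Reg3a, at 181 to 215 CPM against 108 to 129 CPM, rose (0.85 ± 0.20 and 0.73 ± 0.11), while Reg3b fell from 30.8 to 60.5 CPM to 8.13 to 11.0 CPM (-2.39 ± 0.34). Of 6 Reg genes tested, 2 rose and 1 fell, and with 1 library left out 2 to 3 rose and 1 to 2 fell. Against the mean of VillinCreERT2 and C57BL/6 organoids 1 rose and 2 fell.

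Goblet cell genes changed less evenly. Of 20 tested, 8 fell and 1 rose, with a median log2 fold change of -0.43. Tff3, the trefoil peptide that goblet cells secrete with mucus, was at 348, 344 and 319 CPM against 729, 717 and 701 CPM (-1.09 ± 0.07, adjusted p = 3.63e-11). Muc2, the main secreted mucin, was at 202, 193 and 185 CPM against 261, 251 and 211 CPM and stayed under the fold cutoff (-0.32 ± 0.12, adjusted p = 0.0339). Spink4 fell from 389 to 441 CPM to 158 to 210 CPM (-1.20 ± 0.08), and Guca2a, which encodes the peptide guanylin, from 200 to 321 CPM to 58.1 to 67.6 CPM (-2.01 ± 0.17). The chemokine gene Ccl6 had the largest fall of the list, at 11.3, 10.6 and 10.1 CPM against 104, 109 and 109 CPM (-3.33 ± 0.09, adjusted p = 6.96e-20). Muc3, which encodes a mucin of the enterocyte membrane, was the member that rose, at 246 to 285 CPM against 119 to 162 CPM (0.91 ± 0.15).

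The tuft cell list had the lowest median of the secretory lists, -2.03 over 17 genes tested, of which 13 fell and 1 rose, or 3 rose without CDK8iIEC-KO/Cdk19-/- replicate 3 and 2 without VillinCreERT2 replicate 1. Dclk1, the kinase used as a tuft cell marker, was at 0.624, 1.17 and 0.682 CPM in CDK8iIEC-KO/Cdk19-/- and at 7.74, 7.52 and 7.22 CPM in VillinCreERT2 organoids (-3.18 ± 0.20, adjusted p = 2.09e-12). Trpm5, the cation channel of tuft cell chemosensing, was at 0.851, 0.875 and 0.796 CPM against 3.21, 4.03 and 4.91 CPM (-2.26 ± 0.21). Rgs13 and Nrep fell by similar amounts (-2.73 and -2.03), and Avil, which encodes the actin-binding protein advillin, fell by 1.27 on the log2 scale. In all 13 the CDK8iIEC-KO/Cdk19-/- mean was the lowest of the 5 day-7 groups (60.6% of all lower genes).

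Enteroendocrine hormones and granins did not show the same order of groups. Of 20 tested, 6 fell and none rose (median -0.40), yet in 4 of the 6 the C57BL/6 mean was at or under that of CDK8iIEC-KO/Cdk19-/- organoids (32.9% of all lower genes). Ghrl, the ghrelin gene, was at 1.70, 2.39 and 1.82 CPM against 16.2, 10.1 and 14.1 CPM in VillinCreERT2 organoids (-2.77 ± 0.24, adjusted p = 3.89e-08), with a C57BL/6 mean of 2.52 CPM. Cck, which encodes cholecystokinin, was at 14.9, 21.7 and 16.0 CPM against 31.9, 35.2 and 34.2 CPM (-0.95 ± 0.11), and its C57BL/6 mean was 16.6 CPM. Chga, which encodes the granin that is used as a general marker of these cells, was at 35.5, 38.7 and 32.2 CPM against 49.8, 52.4 and 47.4 CPM and did not reach the fold cutoff (-0.49 ± 0.08, adjusted p = 8.04e-06), but passed against the mean of VillinCreERT2 and C57BL/6 organoids (-0.93, adjusted p = 2.33e-11).

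**Figure D2:**
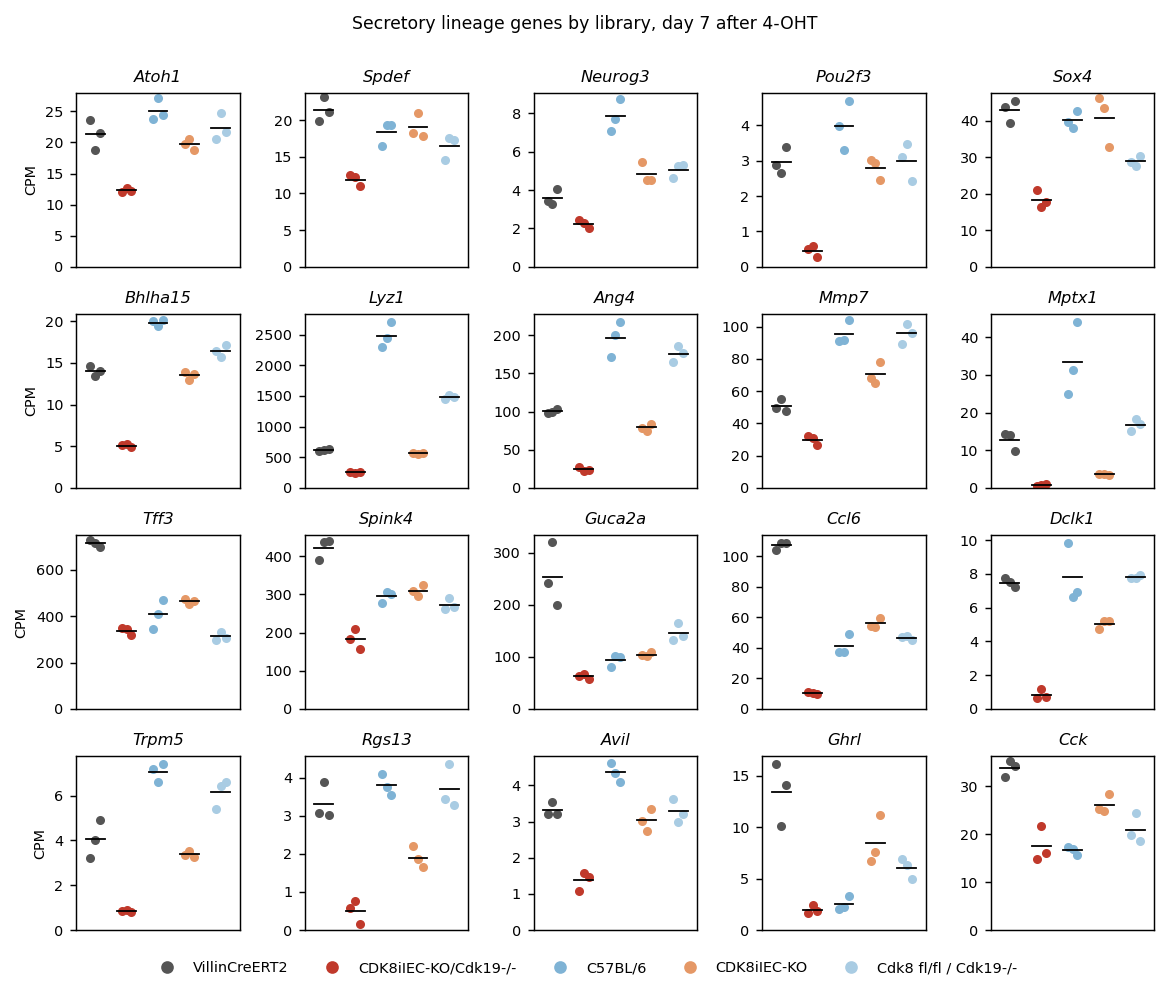
TMM-scaled CPM of 20 secretory lineage genes in each library of the 5 day-7 groups (points, 3 per group; lines, group means; linear axes from 0). For Atoh1, Lyz1, Dclk1 and Trpm5 the 3 CDK8iIEC-KO/Cdk19-/- libraries lie under all other libraries, while for Ghrl and Cck the C57BL/6 libraries lie near them.

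Genes of the stem cell and of the signals around it moved in part. Of 21 stem cell genes tested, 9 fell and 1 rose (median -0.46). Lgr5, the receptor gene that marks crypt base stem cells, was at 24.1, 22.7 and 27 CPM against 32.4, 26.4 and 26.6 CPM, overlapped between groups and did not pass (-0.21 ± 0.10, adjusted p = 0.0753), with a C57BL/6 mean of 59.4 CPM. Mex3a, an RNA-binding protein of slowly cycling stem cells, was at 4.65, 3.03 and 4.49 CPM against 12.7, 11.1 and 12.5 CPM (-1.58 ± 0.16, adjusted p = 1.89e-08). Rgmb, a coreceptor for BMP, fell by less (-0.73 ± 0.07). Gkn3, a gastrokine gene, rose from 1.28 to 1.80 CPM to 7.99 to 10.9 CPM (2.5 ± 0.21). Of 28 Wnt ligands, receptors and targets, 12 fell and 4 rose (median -0.55). Axin2, the feedback inhibitor that Wnt signals induce, was at 37.0, 37.3 and 36.7 CPM against 101, 95.7 and 107 CPM (-1.45 ± 0.08, adjusted p = 1.2e-12), and the Wnt targets Myc and Ccnd1 fell too (-0.97 ± 0.06 and -0.95 ± 0.07). The receptor gene Fzd4 rose, at 29.3 to 30.2 CPM against 14.7 to 18.5 CPM (0.89 ± 0.10).

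Among Notch ligands, receptors and targets, 5 of 17 fell and 1 rose (median -0.33). Dll4, a ligand that Paneth and other secretory cells present, was at 3.69, 3.56 and 3.52 CPM against 7.10, 7.71 and 7.88 CPM (-1.07 ± 0.13), and Dll1, the other such ligand, stayed under the fold cutoff (-0.46 ± 0.08). The receptor gene Notch1 and Lfng, which encodes a glycosyltransferase that modifies Notch receptors, fell as well (-0.79 and -1.47). Hes1, the Notch target that represses Atoh1, was at 118, 115 and 111 CPM against 77.7, 68.7 and 79.6 CPM (0.61 ± 0.06, adjusted p = 1.37e-08). Its fold lay at the cutoff and went under it without VillinCreERT2 replicate 2 (0.55). In the EGF list 4 of 23 fell and none rose, among them the ligand gene Areg at 20.3 to 23.5 CPM against 43.2 to 54.4 CPM (-1.20 ± 0.09). Among immediate early genes 6 of 23 fell and 1 rose, with Egr1 at 6.18, 7.35 and 5.85 CPM against 26.8, 27.7 and 21.8 CPM (-1.98 ± 0.13) and Jun at -1.01 ± 0.09. With 1 library left out 6 to 8 of them fell and 0 to 2 rose. Against the mean of VillinCreERT2 and C57BL/6 organoids 4 fell and 3 rose. Of the 25 BMP and TGF-beta genes 2 rose and 1 fell, or 4 fell without VillinCreERT2 replicate 3. Of the regenerative and fetal-like list, 5 of 15 fell and 1 rose, with Sprr1a at 33.6 to 45.6 CPM against 151 to 193 CPM (-2.09 ± 0.13). The C57BL/6 mean of Sprr1a was 32.7 CPM, under that of CDK8iIEC-KO/Cdk19-/- organoids. The Eph and ephrin list, whose products position cells along the crypt, had 4 fallen genes and 1 risen gene of 13, with Ephb3 at -0.78 ± 0.09, and without CDK8iIEC-KO/Cdk19-/- replicate 3 only 2 fell.

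Interferon-stimulated genes were higher in CDK8iIEC-KO/Cdk19-/- organoids. Of 40 in the list 30 were tested, 18 rose and none fell, with a median log2 fold change of 0.77. In cells, interferon receptors activate transcription factors that bind the interferon-stimulated response element of antiviral genes. The letters GAAANNGAAA stand for this element, searched on both strands in the 250 bases before each RefSeq start (GRCm38.p6). They occurred before a start of 11 of the 25 tested members with a promoter sequence (44%), of 7 of the 14 members that rose and had one (50%), and of 302 of 9960 tested genes (3.03%). A match is a description of the letters and not of bound protein. The windows of 4 members are printed here, since they differ in the element while all 4 genes rose. They lie at chr4:156200819-156201068 (Isg15, minus strand), chr5:120907526-120907775 (Oas1a, minus strand), chr5:120887614-120887863 (Oas1g, minus strand) and chr5:114896684-114896933 (Oasl2, plus strand), each 5′ to 3′ up to the base before the start, with the matches in capitals.
Isg15: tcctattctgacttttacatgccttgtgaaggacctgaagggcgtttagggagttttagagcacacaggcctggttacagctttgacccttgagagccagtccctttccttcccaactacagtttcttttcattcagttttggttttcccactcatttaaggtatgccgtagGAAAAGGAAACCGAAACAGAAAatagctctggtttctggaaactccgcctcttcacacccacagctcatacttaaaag
Oas1a: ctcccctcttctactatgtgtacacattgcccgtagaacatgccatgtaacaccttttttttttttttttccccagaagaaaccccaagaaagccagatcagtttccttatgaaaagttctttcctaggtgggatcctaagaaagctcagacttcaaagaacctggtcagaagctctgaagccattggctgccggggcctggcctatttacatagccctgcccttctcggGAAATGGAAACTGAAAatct
Oas1g: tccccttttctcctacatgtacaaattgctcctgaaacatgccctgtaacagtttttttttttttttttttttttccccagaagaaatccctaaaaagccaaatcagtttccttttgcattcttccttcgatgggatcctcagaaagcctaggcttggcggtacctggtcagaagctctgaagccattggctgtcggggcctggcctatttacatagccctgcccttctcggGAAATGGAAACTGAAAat
Oasl2: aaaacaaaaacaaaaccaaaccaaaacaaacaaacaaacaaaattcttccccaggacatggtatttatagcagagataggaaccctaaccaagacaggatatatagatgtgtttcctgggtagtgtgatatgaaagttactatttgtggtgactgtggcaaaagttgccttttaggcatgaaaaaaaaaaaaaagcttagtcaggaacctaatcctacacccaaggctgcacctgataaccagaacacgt
Isg15 held 3 overlapping matches, Oas1a and Oas1g held 2 each at the end of windows that resemble each other, and Oasl2 held none.

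Oasl2, an antiviral relative of the oligoadenylate synthetases, was at 11.2, 20.5 and 14.7 CPM in CDK8iIEC-KO/Cdk19-/- and at 1.80, 1.92 and 2.15 CPM in VillinCreERT2 organoids (2.98 ± 0.22, adjusted p = 7.74e-10). Oas1a, which senses double-stranded RNA, was at 15.7, 16.3 and 14.2 CPM against 7.06, 7.91 and 7.06 CPM (1.07 ± 0.11). Oas1g was at 9.30, 6.82 and 9.38 CPM against 2.97, 3.24 and 4.20 CPM (1.30 ± 0.17). No library of either group crossed into the other for these 3 genes, as was so for 59.8% of all genes tested. Oas1g was at 0 in the mean of C57BL/6 organoids, and as a near-identical neighbour of Oas1a its reads may be shared with it. Parp14 and Dhx58, a regulator of RNA sensing, also rose (1.26 ± 0.10 and 1.46 ± 0.18). Isg15, which encodes a ubiquitin-like modifier and was picked for its promoter after its values were seen, averaged 1.07 ± 0.388 (SD) against 0.349 ± 0.185 CPM (1.6 ± 0.45, adjusted p = 0.00384), few counts in either group. In all 18 genes that rose, CDK8iIEC-KO/Cdk19-/- organoids had the highest mean of the 5 day-7 groups (59.2% of all higher genes).

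MHC class I and antigen processing genes, which present peptides to T cells and are themselves inducible by interferon, rose in 11 of 23 and fell in none (median 0.51). Psmb9, an immunoproteasome subunit, was at 8.91, 9.04 and 8.92 CPM against 2.14, 1.97 and 2.15 CPM (2.10 ± 0.17, adjusted p = 9.73e-11). Tap2, which carries peptides into the endoplasmic reticulum, was at 12.1, 14.5 and 11.0 CPM against 3.99, 3.64 and 3.74 CPM (1.72 ± 0.13). H2-T3 was at 71.9, 78.2 and 79.0 CPM against 19.7, 21.5 and 24.1 CPM (1.81 ± 0.09), and H2-Q1 and H2-Q4 rose too (1.92 and 1.52). The H2-Q and H2-T genes are close copies, so counts of single members are uncertain, and the element above occurred before 1 of the 9 risen members with a promoter sequence. Pigr, the receptor that carries IgA across the epithelium, rose from 1940 to 2120 CPM to 3390 to 3510 CPM (0.78 ± 0.05), while Nos2 fell (-1.61 ± 0.20), and the defence list as a whole had 3 risen and 3 fallen genes of 18.

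**Figure D3:**
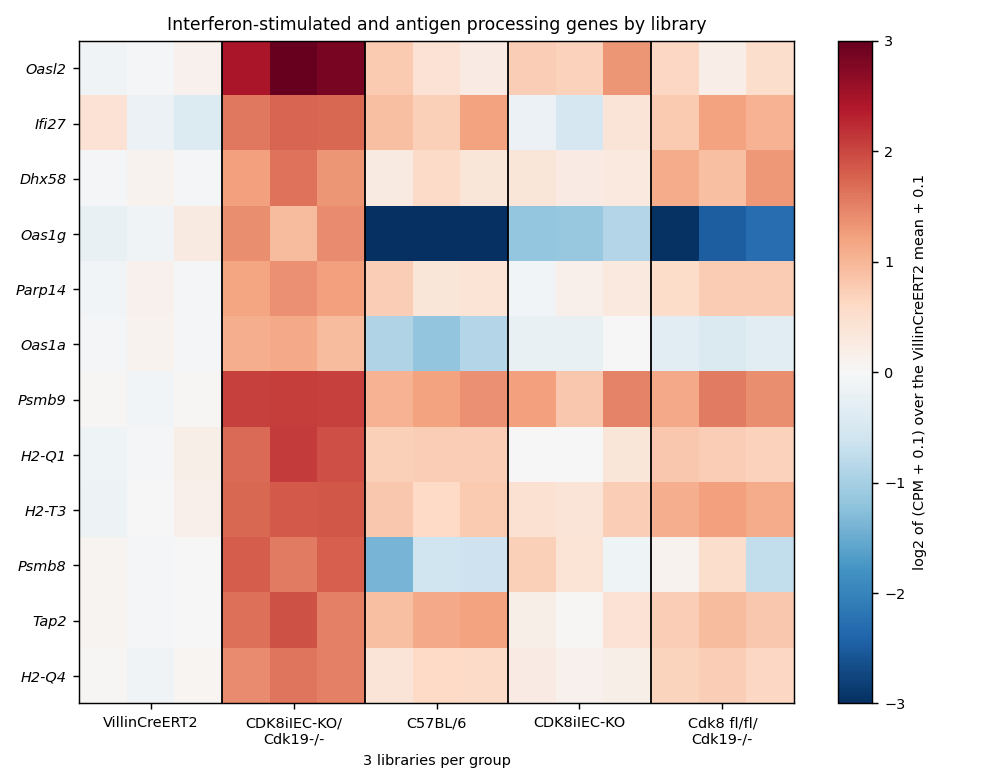
Log2 of CPM + 0.1 over the VillinCreERT2 mean + 0.1 for interferon-stimulated and antigen processing genes (a row of squares each) in the 15 day-7 libraries, 3 per group; red is higher and blue lower than the VillinCreERT2 mean. The CDK8iIEC-KO/Cdk19-/- columns are red throughout, and Oas1g is blue in the C57BL/6 columns, where its mean is 0 CPM.

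Among the lists, the cytochrome P450 genes, which oxidise drugs, steroids and fatty acids, held the most risen members. Of 43 cytochrome P450 genes tested, 22 rose and 4 fell (median 0.67), and in 17 of the 22 the CDK8iIEC-KO/Cdk19-/- mean was the highest of the 5 day-7 groups (59.2% of all higher genes). Cyp2d34 was at 35.1, 22.9 and 21.2 CPM against 1.90, 1.97 and 1.84 CPM (3.79 ± 0.19, adjusted p = 9.32e-13), and Cyp4v3, which oxidises fatty acids, at 308, 291 and 279 CPM against 86.4, 103 and 111 CPM (1.55 ± 0.07). Cyp4a10, a fatty acid hydroxylase induced by PPARA, was at 3.06, 3.73 and 2.5 CPM against 0.195, 0.0491 and 0.154 CPM (4.48 ± 0.36), few counts in the control. The fallen members were 2 without VillinCreERT2 replicate 2 and 6 without CDK8iIEC-KO/Cdk19-/- replicate 1. Cyp1a1, the classical target of the aryl hydrocarbon receptor, went the other way, from 2.85 to 5.17 CPM to 0.397 to 1.08 CPM (-2.43 ± 0.39). Conjugating enzymes and esterases rose in 19 of 48 and fell in 6 (median 0.36). Ces2g, a carboxylesterase, was at 218, 262 and 238 CPM against 69.7, 68.5 and 85.0 CPM (1.69 ± 0.11), but C57BL/6 organoids averaged 242 CPM. Sult1c2, a sulfotransferase, was at 81.8, 70.0 and 76.5 CPM against 32.9, 29.0 and 30.2 CPM (1.31 ± 0.10), with 34.7 CPM in C57BL/6 organoids. Of 4 flavin monooxygenases 2 rose and none fell, with Fmo1 at 68.2, 56.1 and 62.4 CPM against 9.05, 8.55 and 10.1 CPM (2.75 ± 0.10, adjusted p = 5.64e-18). Several of these families hold near-identical copies, which makes the values of single members uncertain.

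Retinoid genes, which handle dietary vitamin A, rose in 9 of 20 and fell in 2 (median 0.52). Rbp2, the carrier of retinol in enterocytes, was at 1240, 1260 and 1270 CPM against 532, 542 and 718 CPM (1.07 ± 0.11), and Rdh7, which oxidises retinol, at 146, 138 and 132 CPM against 54.8, 54.7 and 68.9 CPM (1.22 ± 0.08). Lrat, which esterifies retinol, and Dhrs9 rose as well (0.90 ± 0.12 and 1.11 ± 0.11). Aldh1a1, which makes retinoic acid, fell from 844 to 962 CPM to 507 to 539 CPM (-0.79 ± 0.06).

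Lipid genes rose more often than they fell. Of 24 lipid uptake and chylomicron genes, 5 rose and 1 fell (median 0.32), led by Cd36, the fatty acid transporter, at 64.8, 75.2 and 60.6 CPM against 7.15, 7.86 and 9.72 CPM (3.02 ± 0.12, adjusted p = 2.93e-14). Without VillinCreERT2 replicate 1 the risen members were 3. Abca1, which exports cholesterol, was the member that fell (-1.31 ± 0.18). Fatty acid synthesis genes rose in 4 of 15 and fell in none, with Acacb, whose product makes the malonyl-CoA that restrains fatty acid oxidation, at 11.3, 18.8 and 14.1 CPM against 0.827, 1.23 and 1.38 CPM (3.68 ± 0.27) and Scd1, a desaturase, at 3200, 3740 and 3280 CPM against 1470, 1410 and 1550 CPM (1.21 ± 0.08). Sterol synthesis genes rose in 5 of 23 and fell in none, with Fdps at 121 CPM in each library against 63.7 to 66.8 CPM (0.90 ± 0.07). Fatty acid oxidation genes rose in 5 of 25 and fell in 1. In glycolysis and hypoxia 4 of 26 gene entries rose and 1 fell, near the share of all genes.

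Brush border genes had as many risen as fallen members, 4 and 4 of 29 (median 0.15), but 8 rose without VillinCreERT2 replicate 2. Ace, a peptidase, rose from 63.0 to 71.9 CPM to 147 to 188 CPM (1.31 ± 0.08), and Ush1c, a scaffold of microvilli, from 157 to 183 CPM to 272 to 307 CPM (0.80 ± 0.06). Enpp7, the alkaline sphingomyelinase, fell from 94.3 to 176 CPM to 4.89 to 9.39 CPM (-4.18 ± 0.29, adjusted p = 4.12e-07). Alpi, the intestinal alkaline phosphatase, was at 1700, 1410 and 1690 CPM against 1300, 1220 and 1560 CPM, overlapped between groups and did not reach the fold cutoff (0.24 ± 0.08). It passed against the mean of VillinCreERT2 and C57BL/6 organoids (1.15, adjusted p = 4.52e-12), with a C57BL/6 mean of 383 CPM. The cutoff was also not reached by Sis, the sucrase-isomaltase gene (-0.51 ± 0.09), which reached it without VillinCreERT2 replicate 1 (-0.61). Sugar and fructose genes fell in 4 of 17 and rose in 2, with Slc2a5, the fructose transporter, at 332 to 425 CPM against 559 to 738 CPM (-0.78 ± 0.12). Amino acid and peptide transporters fell in 10 of 25 and rose in 3, or in 1 without VillinCreERT2 replicate 1. Slc7a5, a transporter of large neutral amino acids, was at 24.7, 26.4 and 25.6 CPM against 76.2, 74.7 and 71.7 CPM (-1.54 ± 0.07, adjusted p = 5.18e-15), and the peptide transporter gene Slc15a2 was at 0 counts in all 3 CDK8iIEC-KO/Cdk19-/- libraries, at least 55.0-fold lower if 3 counts per library are taken as the floor. Vitamin, ion and metal transporters fell in 9 of 26 and rose in 3, with Cubn, the receptor for vitamin B12 bound to intrinsic factor, at 0.567 to 2.04 CPM against 17.8 to 31.6 CPM (-4.36 ± 0.29). The C57BL/6 mean of Cubn was 1.20 CPM, as low as in CDK8iIEC-KO/Cdk19-/- organoids.

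Genes of serine and one-carbon metabolism and of the ATF4 stress response fell in 13 of 25 and rose in 2 (median -0.59). Psat1 was at 67.3, 70.2 and 67.3 CPM against 197, 192 and 182 CPM (-1.48 ± 0.06, adjusted p = 5.39e-17), and Phgdh, the first enzyme of serine synthesis, at 13.4, 13.1 and 13 CPM against 33.7, 30.1 and 37.6 CPM (-1.36 ± 0.10). Chac1, which breaks down glutathione and is induced by ATF4, was at 8.11, 7.82 and 6.88 CPM against 26.8, 28.1 and 23.6 CPM (-1.78 ± 0.10). The control lines differed for these genes, with C57BL/6 means of 113 CPM for Psat1, 21.3 CPM for Phgdh and 7.13 CPM for Chac1. In 5 of the 13 the C57BL/6 mean was at or under that of CDK8iIEC-KO/Cdk19-/- organoids, near the 32.9% of all lower genes. NRF2 targets of antioxidant defence fell in 6 of 24 and p53 targets in 7 of 21, with 0 and 1 risen. In 5 of the 6 and 5 of the 7 the C57BL/6 mean was at or under that of CDK8iIEC-KO/Cdk19-/- organoids (32.9% of all lower genes). Hmox1, heme oxygenase, was at 13.5, 12.3 and 14.6 CPM against 32.7, 32.3 and 33.3 CPM (-1.28 ± 0.09) with a C57BL/6 mean of 6.78 CPM. Against the mean of both controls, 1 NRF2 target was lower and 1 higher, and 1 p53 target was lower and 2 were higher.

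Mitochondrially encoded genes rose in 8 of 13 and fell in none (median 0.69), and mitochondrial reads made up 5.96% to 6.23% of the counts in CDK8iIEC-KO/Cdk19-/- and 3.67% to 5.13% in VillinCreERT2 libraries. In 7 of the 8 the C57BL/6 mean was at or above that of CDK8iIEC-KO/Cdk19-/- organoids, as was so for 10 of the 11 risen genes among 74 nuclear respiratory chain genes (35.2% of all higher genes). mt-Nd4, a complex I subunit, was at 4160, 3880 and 3880 CPM against 2720, 1940 and 2200 CPM (0.80 ± 0.10), with 4130 CPM in C57BL/6 organoids. Cytosolic ribosomal protein genes had 6 risen and 4 fallen members of 72. Of the Mediator itself, Med13l, a paralog of Med13 in the kinase module, was the only one of 5 kinase module genes tested to change, at 35.9, 36.1 and 31.5 CPM against 57.7, 57.4 and 60.7 CPM (-0.76 ± 0.09), and Ccnc, which encodes cyclin C, overlapped between the groups (0.06 ± 0.08). Among 24 core Mediator genes 1 fell and among 25 SWI/SNF genes 1 rose, and with 1 library left out these were 0 to 1 and 0 to 2. Mki67, which marks cycling cells, was at 240, 230 and 278 CPM against 310, 287 and 285 CPM and did not reach the fold cutoff (-0.24 ± 0.10), and 4 of 36 replication genes fell. Of 31 mitosis genes 0 passed by edgeR, DESeq2 or limma-voom, with 17 at an unadjusted p under 0.05.

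Genes with large rises included Chrna4 and Gm42031. Chrna4, a nicotinic acetylcholine receptor subunit, was at 28.4, 36.0 and 31.8 CPM against 0.0487, 0.0491 and 0.256 CPM (8.03 ± 0.22, adjusted p = 6.96e-20, on 1 to 5 counts per control library), and the other day-7 groups averaged 2.82 (C57BL/6), 3.69 (CDK8iIEC-KO) and 1.49 CPM (Cdk8 fl/fl/Cdk19-/-). Gm42031 was at 20.5, 27.9 and 28.0 CPM against 0.0983 to 0.146 CPM, but at a mean of 292 CPM in C57BL/6 organoids. Adgrd1, an adhesion G protein-coupled receptor, was at 150, 189 and 170 CPM against 12.4, 9.19 and 17.0 CPM (3.72 ± 0.20). Sp100, which encodes a component of nuclear bodies, was at 4.08, 7.06 and 4.66 CPM against 0.243, 0.295 and 0.461 CPM (3.96 ± 0.29). Large falls included Igfbp5, which binds insulin-like growth factors, at 0.227 to 0.454 CPM against 5.40 to 6.09 CPM (-4.11 ± 0.30), and Grhl3, an epithelial transcription factor, at 0.284 to 0.642 CPM against 3.79 to 6.83 CPM (-3.48 ± 0.28). Both were also low in C57BL/6 organoids, at means of 0.0198 and 0.727 CPM.

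The second comparison asked which of these differences recurred where the arms shared a genotype and differed in treatment. There 2747 of 14983 genes passed (18.3%), 1314 higher and 1433 lower after 4-OHT. It shares no library with the first comparison. Its arms share the genotype, though the labels do not say whether they share a line, and 4-OHT and Cre activity were present in the treated arm alone. The CDK8iIEC-KO/Cdk19-/- libraries of the tables carry different number prefixes in their sample descriptions, and the labels do not say what these stand for or whether the organoids come from the same mouse. Of the 13966 genes tested in both, 2585 passed in the first and 2561 in the second, and 881 passed in both in the same direction (519 higher, 362 lower), which is 34.1% of the first list and 34.4% of the second, while 82 passed in opposite directions. The change differed between the comparisons in 2053 of 14760 genes (13.9%), by the interaction in a joint fit. The list medians had the same sign in both comparisons for 35 of 49 lists, among them the Paneth, Defa, tuft, goblet, interferon, MHC class I, cytochrome P450 and retinoid lists. They had opposite signs for 14, among them the regenerative and fetal-like (-0.37 and 0.43), vitamin, ion and metal transport (-0.23 and 0.21), ileal bile acid (-0.032 and 0.98) and p53 lists (-0.15 and 0.12). The enteroendocrine list was also among the 14 (-0.40 and 0.31). Its medians rest on unlike sets, 20 genes tested in the first comparison and 4 in the second, where 0 passed.

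Atoh1 was at 15.9, 18.7 and 17.9 CPM with 4-OHT and at 32.5, 34.6 and 33.0 CPM with EtOH (-0.93, adjusted p = 6.8e-11), and its change did not pass as different from that of the first comparison (adjusted p = 0.474). Of the secretory transcription factors 8 of 18 fell and none rose, and 7 fell in both comparisons, while Spdef stayed under the fold cutoff (-0.50). Paneth effectors fell in 11 of 14 and rose in 1, Defa genes fell in 13 of 15 and rose in none, and 9 and 12 fell in both. Lyz1 was at 1080, 1110 and 1250 CPM against 3900, 3200 and 3620 CPM (-1.64). Tuft genes fell in 9 of 15 and rose in 2, with Trpm5 at 1.67 to 2.23 CPM against 5.19 to 7.43 CPM (-1.74). Goblet genes fell in 5 of 20 and rose in 3. Tff3 was at 635 to 697 CPM against 636 to 819 CPM, did not pass there (adjusted p = 0.206), and differed between the comparisons (adjusted p = 9.64e-06). Neurog3 was at 12.4 to 13.2 CPM against 11.2 to 15.0 CPM, and its change also differed (adjusted p = 0.0266). Axin2 was at 67.5, 71.4 and 102 CPM against 226, 193 and 216 CPM (-1.40, adjusted p = 3.74e-09), a change near that of the first comparison.

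Interferon-stimulated genes rose in 25 of 35 and MHC class I genes in 14 of 20, with none fallen, and 16 and 7 rose in both comparisons. The median log2 fold change of the interferon list was 1.59 there, above the 0.77 of the first comparison, and 7 members differed between the comparisons. Cytochrome P450 genes rose in 18 of 45 and fell in 3, 10 in both, and Chrna4 was at 23.7, 30.0 and 35.2 CPM against 1.91, 1.92 and 2.28 CPM (3.86). Cd36 was at 37.7, 32.8 and 25.5 CPM against 7.74, 5.56 and 4.83 CPM (2.40), and Acacb at 5.88, 14.5 and 11.2 CPM against 0.464, 0.101 and 0.986 CPM (4.34). Serine and ATF4 genes fell in 9 of 24, 7 in both, and rose in 1. By contrast, Gm16332, Gm28438 and Slc15a2 did not pass there. Slc15a2 was at 7.39 to 8.38 CPM with 4-OHT and 5.97 to 7.53 CPM with EtOH.

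Cell cycle genes set the comparisons apart. In the second one 32 of 36 replication genes and 29 of 31 mitosis genes fell, with medians of -0.95 and -0.81, against medians of -0.27 and -0.06 in the first. The difference itself passed for 21 and 27 of them. Mki67 was at 122, 144 and 166 CPM with 4-OHT and at 253, 312 and 337 CPM with EtOH (-1.06, adjusted p = 3.53e-06). Bile acid genes rose in 7 of 9 with none fallen, while 3 of 10 fell and 1 rose in the first comparison, and brush border genes rose in 11 of 29 and fell in 2. Mitochondrially encoded genes, of which 8 rose in the first comparison, had a median of 0.19 over 13 there.

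**Figure D4:**
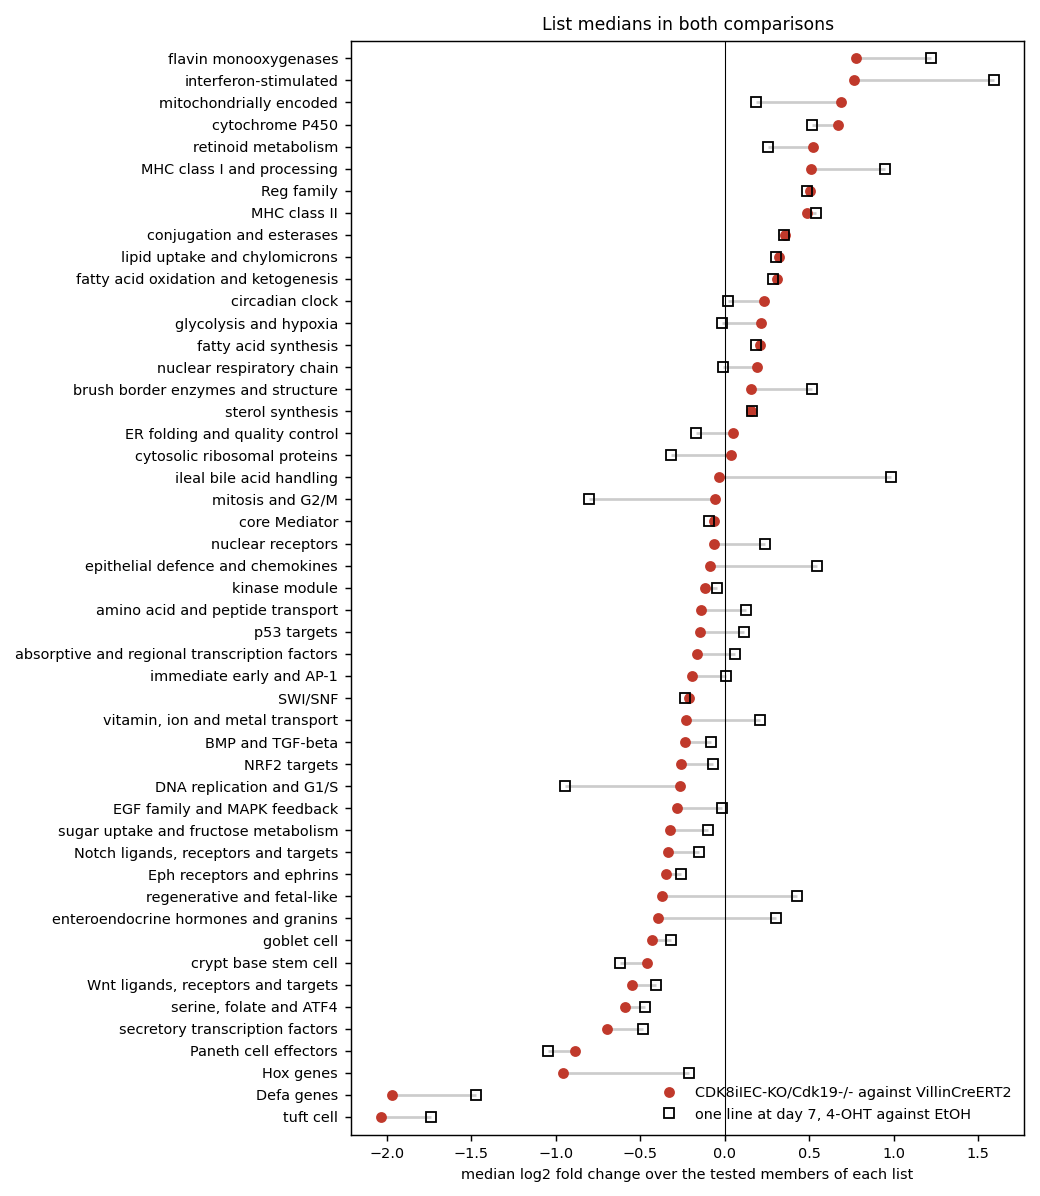
Median log2 fold change over the tested members of each list, in CDK8iIEC-KO/Cdk19-/- against VillinCreERT2 organoids (filled circles) and in the day-7 comparison of 4-OHT with EtOH (open squares), joined by a line per list. The Defa and tuft lists lie lowest in the first comparison, at -1.97 and -2.03, and the circles and squares of the replication and mitosis lists lie far apart.

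The choice of control line decided part of the result. C57BL/6 organoids, also given 4-OHT and collected at day 7, had Xist at 599 to 826 CPM, a level that marks female cells as in VillinCreERT2 organoids. Their group name holds no VillinCreERT2, so the line and the Cre cannot be told apart between both controls. Of the 1151 genes that were lower than in VillinCreERT2 organoids, 379 (32.9%) had a C57BL/6 mean at or under that of CDK8iIEC-KO/Cdk19-/- organoids, and of the 1702 higher genes 599 (35.2%) had one at or above it. Set against the mean of VillinCreERT2 and C57BL/6 organoids, 2042 genes passed, 1222 higher (8.34% of all tested) and 820 lower (5.6%), fewer than the 1702 and 1151 before. Of the 2042, 1460 were among the 2853, which is 51.2% of the 2853. These 1460 include 26 that passed in the opposite direction. Secretory transcription factors then fell in 16 of 22, Paneth effectors in 12 of 15, Defa genes in 14 of 14 and tuft genes in 13 of 17 (3 rose), and interferon-stimulated genes rose in 16 of 30. Other lists had fewer calls in 1 direction. Serine, folate and ATF4 genes fell in 4 in place of 13 and rose in 2 in both cases, amino acid and peptide transporters fell in 5 in place of 10 and rose in 3 in both cases, and EGF family genes fell in 1 in place of 4. Cytochrome P450 genes rose in 19 in place of 22 and fell in 1 in place of 4, while brush border genes rose in 6 in place of 4 and fell in 1 in place of 4. Conjugating enzymes and esterases rose in 13 in place of 19 and fell in 2 in place of 6. Sugar and fructose genes rose in 1 in place of 2 and fell in 2 in place of 4. Mitochondrially encoded genes rose in 2 in place of 8, nuclear respiratory chain genes in 1 in place of 11 and ribosomal protein genes in 1 in place of 6. Some lists gained calls, with 10 Hox genes lower in place of 4, 3 enteroendocrine genes higher in place of 0, 7 vitamin, ion and metal transporters higher in place of 3 and 8 fatty acid oxidation genes higher in place of 5. Of 10 genes of ileal bile acid handling, 1 rose and 3 fell against VillinCreERT2 organoids, while 4 rose and 1 fell against this mean. Alpi, Chga, Gfi1 and Lgr5 passed against this mean and not against VillinCreERT2 organoids (1.15, -0.93, -0.68 and -0.74). Several genes named above no longer passed against this mean. Among those that had fallen these were Igfbp5 (-0.25), Med13l (-0.50), Cck (-0.43), Notch1 (-0.52), Slc2a5 (-0.11), Cyp1a1 (-0.33), Aldh1a1 (-0.49), Hmox1 (-0.15) and Nos2 (-0.34). Among those that had risen they were Itgam (0.46), Hes1 (0.36), Reg3g (0.52), Reg3a (0.08), Ush1c (0.52), Pigr (0.54) and mt-Nd4 (0.37). Of the genes named by the rule, 12 that had fallen had a fitted change above 0 against this mean, and 4 of these passed as higher, Slc10a2, Cybrd1, Sfrp5 (1.34) and Angptl4 (1.12). Fabp6, the ileal bile acid-binding protein, was at 5.90, 34.6 and 18.5 CPM against 216, 313 and 114 CPM in VillinCreERT2 (-3.45 ± 0.50), but its C57BL/6 mean was 0.239 CPM, and its change of 1.42 against the mean of both did not pass (adjusted p = 0.297). Slc10a2, the ileal bile acid transporter, changed by -1.35 ± 0.35 against VillinCreERT2, a call lost when only both groups were fitted, and by 1.18 against both, and Cybrd1, a ferric reductase of the brush border, by -1.62 ± 0.20 and 1.85.

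**Figure D5:**
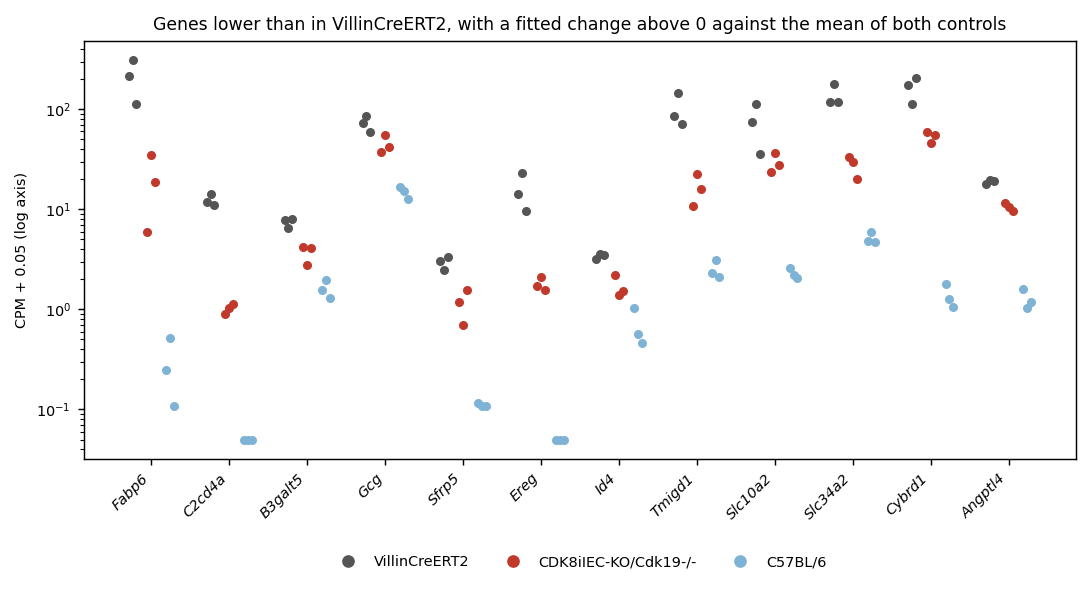
CPM + 0.05 on a log axis, by library, of 12 genes that were lower in CDK8iIEC-KO/Cdk19-/- than in VillinCreERT2 organoids and had a fitted change above 0 against the mean of both control lines (3 libraries per group). The C57BL/6 points are lowest and the CDK8iIEC-KO/Cdk19-/- points lie between the controls, as for Fabp6 and Cybrd1 (C57BL/6 means 0.239 and 1.33 CPM), except that for Slc10a2 1 CDK8iIEC-KO/Cdk19-/- library (36.6 CPM) lies above VillinCreERT2 replicate 3 (35.4 CPM).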

How the data were processed

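Paired-end reads of 100 bp were made from poly-A RNA of mouse small intestinal organoids. The authors deposited raw counts of reads per gene, without normalization. The submitters' processing notes name STAR 2.5.2, featureCounts, Subread 1.6.3 and mm10, and the strand setting and the handling of multi-mapped reads are not given in the sources used here. Gene positions were taken from GENCODE vM21 (53861 of 54752 identifiers matched), genes on X and Y (4184) were left out, and 0 per-sample columns of the tables used were left without a sample.

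Counts were analysed with edgeR 4.0.16 in R 4.3.3 (filterByExpr by group, TMM factors, robust dispersions, quasi-likelihood F test, Benjamini-Hochberg adjustment over all genes tested). The first comparison was fitted with all 15 libraries of the 5 day-7 groups, the second with the 24 libraries of the time course, and their difference as an interaction in a joint fit of 12 libraries. Cutoffs were an adjusted p of 0.05 and a 1.5-fold change, as in the study. The SE is the log2 fold change over the root of F, and CPM use TMM-scaled library totals. Where every library of a group was at 0 counts, the fold is stated as a bound, with 3 counts per library as the floor. limma 3.58.1 (voom) and DESeq2 1.42.0 were alternatives. Fits were tested on simulated data.

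Members and lists were chosen with earlier results of these data known. Named genes were a set of marker genes, the 15 largest rises and falls among genes that passed, did not overlap between groups and averaged at least 50 counts in the higher group, and up to 6 members past the cutoffs per list. Promoters (250 bases before the start) were RefSeq sequences of GRCm38.p6. Libraries of equal replicate number deviated from their group means with correlations of -0.032, 0.114 and 0.059 between both groups, not all over 0.1, so the numbers were not taken as pairs. Totals limit the precision of genes with few counts. Some genes that the rule names are not reported here, and the other tables were not used here.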

Additional observations from a re-analysis of the deposited data

Results flagged for a closer look

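The change between groups differed between the comparison with VillinCreERT2 organoids and the day-7 comparison of 4-OHT with EtOH in 2053 genes, by the interaction in a joint fit (edgeR, quasi-likelihood test). Among these were 21 replication genes and 27 mitosis genes, all with the lower value in the second comparison. There 21 and 25 of these passed, and 0 passed in the first. Mki67 differed by 0.83 on the log2 scale (adjusted p = 0.0023), the first change minus the second.

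Among genes of the secretory lineage, the difference was -0.86 for Ang4, -0.94 for Tff3, -0.66 for Neurog3, -2.22 for Defa34 and -1.56 for Mptx1, each a lower value in the comparison with VillinCreERT2 organoids (adjusted p from 9.64e-06 for Tff3 to 0.0266 for Neurog3). Ang4, Defa34 and Mptx1 passed in both comparisons in the same direction, so for them the size differed and not the direction. For Chga the difference was -3.04 (adjusted p = 0.00497), although Chga had few counts in the second table and was left out of the second comparison by the filter on low counts.

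Most of the other genes given here were at or near 0 in a group of 1 comparison, so that their fitted differences rest on few counts. The difference was 4.18 for Chrna4, which rose in both comparisons, and 2.91 for Gm44101. It was 5.12 for Gm16332 and 7.64 for Gm42031, whose VillinCreERT2 libraries held 1 to 3 counts each. Their CPM ratios in the first comparison were 49.7 for Gm16332 (95% exact counting interval 21 to 155) and 220 for Gm42031 (106 to 548), intervals that cover counting error only, and Gm42031 was left out of the second comparison by the filter. The difference was 5.00 for Gm28438 and 4.41 for Gm5853. Slc15a2, at 0 counts in CDK8iIEC-KO/Cdk19-/- organoids of the first table and at a mean of 7.89 CPM with 4-OHT in the second, which was normalised separately, had a difference of -5.98 or lower on the log2 scale, a bound that takes 3 counts per library as the floor. The difference was -3.05 for Clca4a, -2.75 for Cubn and -2.61 for Slc25a48, which fell in both comparisons. It was -5.53 for Mt4, -4.70 for C2cd4a and -2.71 for Grhl3. Their causes were not tested.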

How the results depend on the processing

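The 2853 genes past the cutoffs became 3173 without a filter on low counts, 2044 with at least 10 counts in every library, 2873 with upper quartile factors, 2637 with DESeq2, 2836 with limma-voom, 2702 when only both groups were fitted and 2938 with X and Y kept, and with 1 library left out they lay between 2690 and 2845. Tested against the 1.5-fold change itself (glmTreat), 1252 genes passed, 750 higher and 502 lower, a stricter test by its construction. With the replicate block 2856 genes passed in the first comparison and 2742 in the second, and the block changed no call of a named gene. For the second comparison the alternatives gave 2192 to 2857 genes and 2433 to 3010 with 1 library left out, and for the difference 1806 to 2163 and 1652 to 2326. Of 260 named genes, 144 kept their direction and side of the cutoffs under each alternative that gave them a value (the minimum of 10 counts in every library gave one for 223), 100 lost their call under at least 1, and 14 turned direction under at least 1. With glmTreat 65 lost their call, with the mean of both controls 75. Cdk19, which did not pass, was at 0.032 with upper quartile factors and, with 1 library left out, between -0.038 (without VillinCreERT2 replicate 3) and 0.0089 (without VillinCreERT2 replicate 1). With the mean of VillinCreERT2 and C57BL/6 organoids as the control, 13 turned: Fabp6 to 1.42, C2cd4a to 1.76, B3galt5 to 0.12, Gcg to 0.46, Sfrp5 to 1.34, Ereg to 2.43, Id4 to 0.19, Tmigd1 to 0.033, Slc10a2 to 1.18, Slc34a2 to 0.051, Cybrd1 to 1.85, Angptl4 to 1.12 and Cdk8, which had not passed, to 0.024. Of these 13, Sfrp5, Slc10a2, Cybrd1 and Angptl4 passed as higher. C2cd4a and Ereg were at 0 in C57BL/6 organoids, so that their values depend on the prior count. Alpi, Chga, Gfi1 and Lgr5 gained a call with this mean. This alternative brings in the differences between both control lines by its construction. Depth limits the genes at a few counts per library, such as Isg15 and Defa34, whose fold changes are imprecise.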

Other observations

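Genes of the circadian clock and its output rose in 4 of 17 and fell in 1. Dbp, an output gene, was at 19.2, 21.8 and 15.2 CPM in CDK8iIEC-KO/Cdk19-/- and at 7.59, 6.48 and 7.27 CPM in VillinCreERT2 organoids (1.40 ± 0.12, adjusted p = 2.65e-10), and Hlf at 3.52, 3.09 and 3.69 CPM against 0.827, 1.28 and 1.18 CPM (1.65 ± 0.22). C57BL/6 organoids averaged 20.3 CPM of Dbp and 3.73 CPM of Hlf, and in 3 of the 4 risen genes their mean was at or above that of CDK8iIEC-KO/Cdk19-/- organoids (35.2% of all higher genes). The hours of collection are not given in the sources used here.

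Of 28 transcription factors of absorptive cells and gut regions, 6 fell and 3 rose. Onecut2 was at 183, 170 and 201 CPM against 103, 69.9 and 112 CPM (0.96 ± 0.17), and Maf, which acts in enterocytes, at 51.7, 52.3 and 46.4 CPM against 23.9, 28.6 and 22.7 CPM (1.00 ± 0.08). Ehf, an epithelial ETS factor, fell from 348 to 371 CPM to 200 to 218 CPM (-0.78 ± 0.06), with a C57BL/6 mean of 186 CPM. Of 12 Hox genes tested 4 fell and 1 rose, with Hoxa3 at -0.98 ± 0.17, while against the mean of both control lines 10 fell and none rose. With 1 library left out 4 to 6 Hox genes fell and 0 to 2 rose. Among 25 nuclear receptors 4 rose and 2 fell, but none fell without CDK8iIEC-KO/Cdk19-/- replicate 3, 1 fell without each of the other libraries except VillinCreERT2 replicate 3, and 2 rose and none fell against the mean of both control lines. Against the mean of both control lines Maf (0.53) and Ehf (-0.30) no longer passed.

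The letters TGATGNAA of the CEBP-ATF response element occurred, on either strand, before a start of 5 of 23 serine, folate and ATF4 genes with a promoter sequence (21.7%), of 2 of the 12 that fell (16.7%) and of 2.39% of 9960 tested genes. The letters ATCAAAG of a TCF site occurred before 1 of 14 Paneth effectors and 1 of 16 Wnt genes with a promoter sequence, and before 2.75% of tested genes.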
